A study of Mus musculus with 2 samples.

Results

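The C-type lectin receptors of myeloid cells examined here are the products of 8 genes, Clec4a1, Clec4a2, Clec4a3, Clec4d, Clec4e, Clec5a, Clec7a and Clec12a. They were listed by name, with earlier results of these data known, and read from the expression tables of both libraries. Of the 8 genes, 7 have a row in the tables, among 13211 genes listed in at least 1 table. Clec7a, which encodes the beta-glucan receptor Dectin-1, has no row in either table; it counts as 0 under the rule that chose the set and is not analysed further.

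The study compared bone marrow of Col1a1fspKO mice with that of WT littermates by single-cell RNA-sequencing (sc-RNA-seq). Col1a1fspKO mice carry the Fsp1-Cre transgene and floxed Col1a1 on both chromosomes (Fsp1-Cre;Col1a1flox/flox), so Col1a1, the gene of the type I collagen α1 chain, is deleted in cells in which the Fsp1 (S100a4) promoter has driven Cre. WT mice were Cre-negative;Col1a1flox/flox, so both groups carry the floxed alleles. For each genotype, marrow flushed from femur and tibia of 2 mice, 2 months old and untreated, was pooled, sorted for live cells and made into 1 library with the 10x Genomics 3' v2 kit, which counts mRNA molecules by unique molecular identifiers (UMIs). The 2 mice of a pool cannot be told apart and each genotype has 1 library, so no test between genotypes was made and all intervals below cover counting error only.

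C-type lectin receptors recognize sugars and lipids of microbes and products of dying cells at the surface of phagocytes. Activating members signal through an immunoreceptor tyrosine-based activation motif (ITAM), mostly in a partner chain such as FcRγ (Fcer1g) or DAP12 (Tyrobp), to the kinase Syk and the adaptor Card9, which leads to cytokine production. Inhibitory members carry a tyrosine-based motif of their own that recruits phosphatases such as SHP-1 (Ptpn6) and dampens the cell's response.

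The genes lie in 3 places on mouse chromosome 6 (GENCODE M21, GRCm38, the mm10 build named in the submitters' processing notes). Clec4a1, Clec4a3, Clec4a2, Clec4d and Clec4e follow each other in this order within chr6:122921848-123289870, a stretch of 368.0 kb. Clec12a is at chr6:129342691-129365303 on the plus strand, and Clec5a at chr6:40574894-40585821 on the minus strand. Clec4a1 and Clec4a3, and likewise Clec4d and Clec4e, are the neighbours with the most similar profiles across cell populations in these data, as described below, and their promoters are therefore shown. Each run holds 250 bases before and 50 bases after the transcription start given by RefSeq (GRCm38.p6), 5′ to 3′ on the strand of the gene. Capitals mark GAGGAA (the core bound by PU.1) or TTGCNNAA (C/EBP), on either strand.
Clec4d, chr6:123261857-123262156, plus strand: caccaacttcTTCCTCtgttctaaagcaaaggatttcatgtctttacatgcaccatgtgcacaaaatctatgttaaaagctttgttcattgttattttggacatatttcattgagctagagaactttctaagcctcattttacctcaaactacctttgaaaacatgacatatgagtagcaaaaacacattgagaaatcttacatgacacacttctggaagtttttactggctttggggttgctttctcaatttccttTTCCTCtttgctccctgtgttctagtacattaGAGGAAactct
Clec4e, chr6:123289822-123290121, minus strand: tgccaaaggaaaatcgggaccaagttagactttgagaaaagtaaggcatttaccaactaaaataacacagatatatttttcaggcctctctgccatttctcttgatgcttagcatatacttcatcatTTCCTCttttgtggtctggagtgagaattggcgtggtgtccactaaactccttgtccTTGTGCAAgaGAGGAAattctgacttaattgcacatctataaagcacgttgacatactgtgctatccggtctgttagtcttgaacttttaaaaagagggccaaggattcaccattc
Clec4a1, chr6:122921598-122921897, plus strand: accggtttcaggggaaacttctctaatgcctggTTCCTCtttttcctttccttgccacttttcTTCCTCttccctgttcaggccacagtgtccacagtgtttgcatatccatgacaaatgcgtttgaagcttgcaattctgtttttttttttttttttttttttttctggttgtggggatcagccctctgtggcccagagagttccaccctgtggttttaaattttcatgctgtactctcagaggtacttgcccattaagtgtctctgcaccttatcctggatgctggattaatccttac
Clec4a3, chr6:122952394-122952693, plus strand: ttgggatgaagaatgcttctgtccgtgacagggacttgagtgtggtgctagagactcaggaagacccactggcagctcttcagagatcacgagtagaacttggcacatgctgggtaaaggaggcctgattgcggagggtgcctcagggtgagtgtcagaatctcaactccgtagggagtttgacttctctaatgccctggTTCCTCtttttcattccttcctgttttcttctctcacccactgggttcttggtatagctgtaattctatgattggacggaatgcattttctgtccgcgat

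PU.1 and C/EBP factors are transcription factors of the myeloid lineage. RefSeq promoters were found for 8 of 8 genes. GAGGAA was found in the promoter of 7 of 8 genes, Clec4a2 being the exception, and in 28.3% of 32817 promoters of the same length. TTGCNNAA was present in the promoters of Clec4e and Clec12a and in 10.8% of all promoters. The AP-1 motif, TGANTCA, was present in those of Clec4a2 and Clec12a and in 7.8% of all promoters. None of the 3 motifs contains another. Clec4a3 has a second RefSeq promoter, chr6:122952265-122952564, which overlaps the one shown and holds none of the 3. These matches are descriptions of the letters in these windows.

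The Col1a1fspKO table held 8647722 UMIs in 1309 cells and WT had 8624469 UMIs in 1169 cells, with medians of 4954 and 5534 UMIs per cell. The shallowest cell had 2540 UMIs in the Col1a1fspKO library and 2909 in WT, and the libraries shared 2 cell barcodes. Cells were clustered without the receptors and without the genes of their signalling pathway, and clusters were named from marker lists. Of the 22 neutrophil markers, 21 were higher in Neutrophil-like cells than in all other cells in each library, and of the 18 monocyte and macrophage markers, 16 in the Col1a1fspKO library and 17 in WT were higher in Mono/Macro-like cells. Neutrophil-like cells formed clusters led by Orm1, by Mmp8, and by Gm5483 and Retnlg, here called Orm1-led, Mmp8-led and Retnlg-led. A further cluster, led by Fcnb and Ms4a3, scored highest for myeloid progenitors but had more neutrophil markers among its leading genes, so it is left unnamed and called Fcnb-led. Mono/Macro-like cells formed clusters led by Wfdc17, Ass1 and Klf4. Col1a1 had 3 UMIs in the Col1a1fspKO library and 0 in WT, so these marrow cells do not check its deletion; S100a4 had 2026 and 2184 UMIs.

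Over all cells, the receptors differed widely in how often they were counted. Clec4a2 had 1828 UMIs in the Col1a1fspKO library and 1886 in WT, and Clec12a had 1178 and 1135. Clec5a had 426 and 456 UMIs, Clec4a1 294 and 243, and Clec4a3 226 and 217. Clec4e, with 158 and 120 UMIs, and Clec4d, with 120 and 79, were the most sparsely counted. Levels below are UMIs per 1000000 UMIs of a population (CPM), with exact 95% Poisson intervals.

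Clec4a1 and Clec4a3 are close relatives of Clec4a2, the inhibitory receptor DCIR. Both were almost confined to Mono/Macro-like cells, which held 94.2% of all Clec4a1 UMIs in the Col1a1fspKO library and 93.8% in WT, and 93.4% and 95.9% of those of Clec4a3. Within these cells the Wfdc17-led cluster was by far the highest. There, Clec4a1 stood at 250.0 CPM (219 to 284) in the Col1a1fspKO library and 209 CPM (182 to 240.0) in WT, and Clec4a3 at 196 CPM (169 to 227) and 199 CPM (172 to 229). The next cluster for Clec4a1 was the Klf4-led one, at 49.0 CPM (30.7 to 74.2) and 25.2 CPM (12.6 to 45.1), and the intervals did not reach those of the Wfdc17-led cluster. The Ass1-led cluster followed for Clec4a1 with 31.7 CPM (18.8 to 50.1) and 21.7 CPM (10.8 to 38.8), which overlapped the Klf4-led cluster in both libraries. For Clec4a3, the Ass1-led cluster had 22.9 CPM and 19.7 CPM, and the Klf4-led cluster 26.7 CPM from 12 UMIs in Col1a1fspKO but 4.59 CPM from 2 UMIs in WT.

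Neutrophil-like cells had almost no UMI of either gene. Clec4a1 had 0 UMIs in 427 Neutrophil-like cells of Col1a1fspKO and 1 in 307 of WT, and Clec4a3 had 2 and 1. With each cell thinned to 2500 UMIs, which sets all cells to the same depth, 0 of 427 Neutrophil-like cells of Col1a1fspKO had a Clec4a1 UMI (exact interval 0 to 0.860%), and 0 of 307 of WT (0 to 1.19%). In the Wfdc17-led cluster the thinned share was 44.2% (36.7 to 52.0) in the Col1a1fspKO library and 37.2% (30.3 to 44.6) in WT for Clec4a1, and 35.6% (28.5 to 43.2) and 38.8% (31.8 to 46.2) for Clec4a3. Without thinning these shares were 71.3% and 63.8% for Clec4a1, and 60.9% and 56.9% for Clec4a3. B cells-like cells, which should lack both receptors, had a Clec4a1 UMI in 0.403% and 1.35% of thinned cells, at median depths of 4326 and 5514 UMIs before thinning, against 5442 and 5108 in the Wfdc17-led cluster.

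At the finer clustering resolution of 1.2 the Wfdc17-led cluster divided into a part led by Fn1, with 90 cells in the Col1a1fspKO library and 94 in WT, and a part led by Apoe, with 83 and 94 cells. The Apoe-led part had more Cx3cr1, a receptor gene of patrolling monocytes, at 238 and 237 CPM against 101 and 104 CPM. Clec4a1 was higher in the Apoe-led part in both libraries, at 320.0 CPM (270.0 to 377) in the Col1a1fspKO library and 276 CPM (231 to 327) in WT, against 184 CPM (148 to 227) and 144 CPM (113 to 182) in the Fn1-led part. For Clec4a3 the Apoe-led part had 227 CPM (186 to 276) and 280.1 CPM (235 to 331), and the Fn1-led part 166 CPM (131 to 206) and 120.4 CPM (91.9 to 155). The intervals of Clec4a3 overlapped between the parts in Col1a1fspKO and did not in WT. Clec4a2 ran the other way, with 287 CPM (240 to 341) and 332 CPM (282 to 387) in the Apoe-led part and 395 CPM (341 to 456) and 410 CPM (355 to 470) in the Fn1-led part, where the intervals overlapped in WT and met only just short of each other in Col1a1fspKO.

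Clec4a2 (DCIR), whose product carries an inhibitory motif in its tail, was high in clusters of both granulocytes and monocytes. It was low in myeloid progenitor-like cells, at 16.4 CPM (15 UMIs) in the Col1a1fspKO library and 26.0 CPM (28 UMIs) in WT, and had 468 CPM (427 to 512) and 548 CPM (508 to 591) in the Fcnb-led cluster. It then stayed within a narrow range across the neutrophil clusters. The Orm1-led cluster had 411 CPM (364 to 461) in the Col1a1fspKO library and 412 CPM (367 to 460) in WT, the Mmp8-led cluster 416 CPM (367 to 470) and 428 CPM (369 to 495), and the Retnlg-led cluster 511 CPM (438 to 593) and 488 CPM (370 to 630). Neighbouring clusters in this series overlapped in their intervals in each library, apart from the Fcnb-led over the Orm1-led cluster in WT. Among Mono/Macro-like cells the Wfdc17-led cluster had 343 and 371 CPM, the Klf4-led cluster 260.5 and 282 CPM, and the Ass1-led cluster 211 and 215 CPM. Counted per cell instead of per UMI the order was different, and the clusters also differ in depth. The Fcnb-led cluster had the most Clec4a2 UMIs per cell, 4.80 in the Col1a1fspKO library and 5.18 in WT, and the Klf4-led cluster was next with 3.16 and 3.15, while the Retnlg-led cluster had 1.62 and 1.71. With each cell thinned to 2500 UMIs, a Clec4a2 UMI was found in 67.3% and 71.8% of Fcnb-led cells, and in 68.5% and 61.8% of Retnlg-led cells. The same share was 6.05% and 3.15% in B cells-like cells and 2.63% and 6.58% in myeloid progenitor-like cells, with overlapping intervals, so the progenitor-like share cannot be told from this background. Of the 100-base stretches in the last 500 bases of the annotated Clec4a2 transcripts, 2.91% also occur in Clec4a4, a neighbouring gene of its family. Reads that lie wholly within the shared sequence cannot be assigned to 1 of the genes, and the share of such reads was not counted. For the other receptors 0 stretches were shared.

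Clec12a encodes MICL, an inhibitory receptor that recognizes uric acid crystals from dying cells. It was the most widely spread of the receptors. Among myeloid progenitor-like cells it already had 95.2 CPM (76.3 to 118) in the Col1a1fspKO library and 107 CPM (88.1 to 128) in WT, from 87 and 115 UMIs, against 7.36 CPM (3.80 to 12.9) and 11.8 CPM (7.33 to 18.1) in B cells-like cells. It was highest along the granulocyte series in the Fcnb-led cluster, at 381 CPM (344 to 422) and 315 CPM (285 to 348). Neutrophil-like clusters had lower values, with 250.2 and 245 CPM in the Orm1-led, 228 and 185 CPM in the Mmp8-led and 187 and 244 CPM in the Retnlg-led cluster. Of these, only the Retnlg-led cluster of WT, with an interval of 163 to 350 CPM, overlapped the Fcnb-led cluster of its library. In thinned cells the decline was less sharply set. A Clec12a UMI was found in 57.1% (46.75 to 67.1) and 50.4% (41.52 to 59.23) of Fcnb-led cells. Only the Retnlg-led cluster of Col1a1fspKO, at 33.3% (24.55 to 43.05), did not overlap the Fcnb-led cluster of its library by this measure. Mono/Macro-like clusters lay between 87.2 and 141 CPM over both libraries. Plasmacytoid dendritic-like cells, which had hardly any UMI of the other receptors, had 247 CPM (182 to 327) of Clec12a in the Col1a1fspKO library and 348 CPM (255 to 465) in WT. They had 1 UMI of Clec4a2 and 1 of Clec4d in the Col1a1fspKO library and 0 UMIs of the other receptors in either library. With cells thinned, 42.9% (27.7 to 59.0) of 42 plasmacytoid dendritic-like cells in the Col1a1fspKO library and 60.0% (40.6 to 77.3) of 30 in WT had a Clec12a UMI, against 1.61% and 2.70% of B cells-like cells. Eosino/Baso-like cells, of which there were 9 and 18, had 224 CPM (128 to 364) and 249 CPM (164 to 362).

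**Figure D1:**
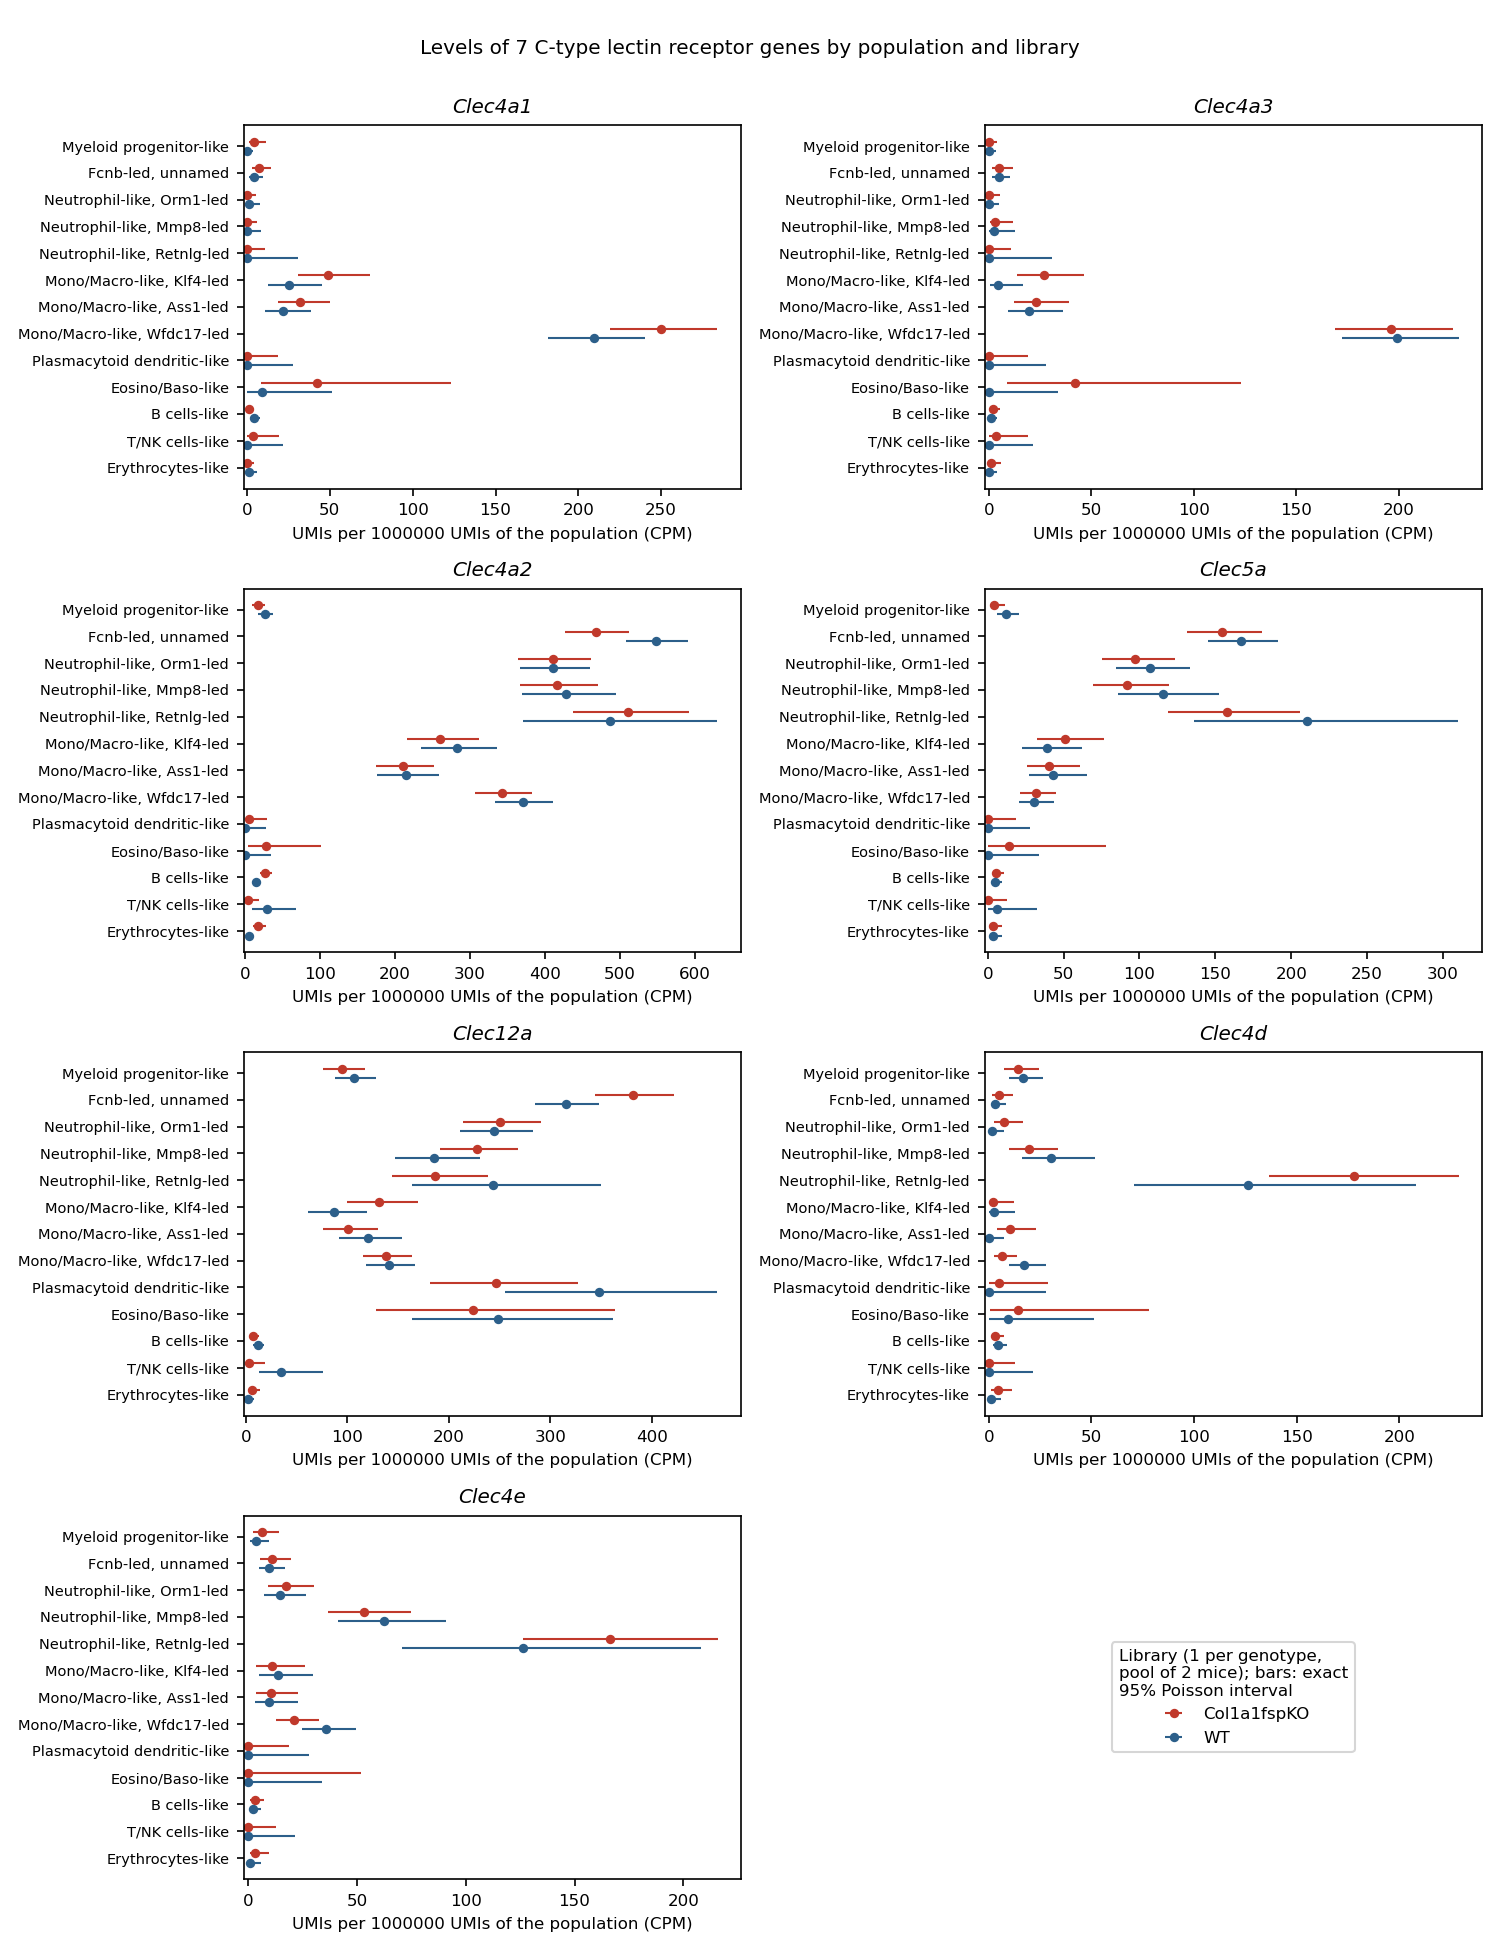
Level of each of the 7 receptor genes in CPM (x axis) in 13 cell populations (y axis), in the Col1a1fspKO library (red) and the WT library (blue), with points for the level and bars for the exact 95% Poisson interval. Clec4a1 and Clec4a3 stand out in the Wfdc17-led cluster, at 196 to 250.0 CPM, and Clec4d and Clec4e in the Retnlg-led cluster, at 126 to 178 CPM, while Clec4a2 and Clec12a are spread over many populations.

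Clec5a encodes MDL-1, an activating receptor that pairs with DAP12. It was a gene of the granulocyte series with 2 high points. The Fcnb-led cluster had 154 CPM (131 to 181) in the Col1a1fspKO library and 167 CPM (145 to 192) in WT, and the Retnlg-led cluster 158 CPM (118 to 206) and 210.2 CPM (136 to 310.2). Between them the Orm1-led cluster had 96.9 CPM (75.1 to 123) and 107 CPM (84.7 to 133), and the Mmp8-led cluster 92.0 CPM (69.7 to 119) and 116 CPM (86.0 to 153). In CPM the intervals of the Fcnb-led and Orm1-led clusters did not overlap in either library. Those of the Mmp8-led and Retnlg-led clusters overlapped in both, so by this measure the second high point is less sharply set. Mono/Macro-like clusters had 30.5 to 51.2 CPM. Myeloid progenitor-like cells had 4.38 CPM (1.19 to 11.2) and 12.1 CPM (6.42 to 20.6), near the 5.52 and 5.08 CPM of B cells-like cells. Thinned cells had the same 2 high points but were separated differently. A Clec5a UMI was found in 27.6% and 33.6% of Fcnb-led cells and in 20.8% and 22.9% of Orm1-led cells, with overlapping intervals in both libraries. The shares were 17.1% and 23.3% of Mmp8-led cells and 36.1% and 44.1% of Retnlg-led cells. Intervals of these 2 clusters did not overlap in the Col1a1fspKO library (11.7 to 23.6 and 27.1 to 45.9) and overlapped in WT.

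Clec4d (MCL) and Clec4e (Mincle) encode activating receptors that pair with FcRγ and recognize glycolipids of mycobacteria. Both were highest in the Retnlg-led cluster, whose leading genes Retnlg and Stfa2l1 are genes of mature neutrophils. Clec4d had 178 CPM (136 to 229) there in the Col1a1fspKO library and 126 CPM (70.6 to 208) in WT, from 61 and 15 UMIs. The Mmp8-led cluster followed at 19.4 CPM (10.0 to 33.8) and 30.1 CPM (16.0 to 51.5), and the Orm1-led and Fcnb-led clusters were between 1.35 and 7.23 CPM. Clec4e had 166 CPM (126 to 216) and 126 CPM (70.6 to 208) in the Retnlg-led cluster, from 57 and 15 UMIs. It had 53.3 CPM (36.7 to 74.8) and 62.5 CPM (41.2 to 91.0) in the Mmp8-led cluster and 17.3 CPM (8.97 to 30.3) and 14.9 CPM (7.43 to 26.6) in the Orm1-led cluster. For Clec4d the Retnlg-led and Mmp8-led clusters did not overlap in either library; for Clec4e they did not overlap in the Col1a1fspKO library and overlapped in WT, where the Retnlg-led cluster holds 34 cells.

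Per thinned cell, Clec4d was found in 38.9% (29.7 to 48.8) of Retnlg-led cells in the Col1a1fspKO library and 23.5% (10.7 to 41.2) in WT, and in 2.35% and 6.03% of Mmp8-led cells. Clec4e was found in 32.4% (23.7 to 42.1) and 29.4% (15.1 to 47.5) of Retnlg-led cells and in 13.5% (8.77 to 19.6) and 14.7% (8.78 to 22.4) of Mmp8-led cells. B cells-like cells had 0.806% and 1.35% for Clec4d and 0.806% and 0.901% for Clec4e. Outside the neutrophils, Clec4e had 21.1 CPM (20 UMIs) and 35.6 CPM (35 UMIs) in the Wfdc17-led cluster, and Clec4d 6.33 CPM (6 UMIs) and 17.3 CPM (17 UMIs). Myeloid progenitor-like cells had 14.2 CPM of Clec4d (7.58 to 24.3, 13 UMIs) and 16.7 CPM (9.90 to 26.4, 18 UMIs). This was above the 3.07 CPM (0.996 to 7.16) and 4.51 CPM (1.95 to 8.89) of all B cells-like cells pooled, with no overlap of the intervals. The Ms4a1-led cluster of B cells-like cells had 5.25 CPM (0.636 to 19.0, 2 UMIs) and 19.2 CPM (7.06 to 41.9, 6 UMIs). These intervals overlapped those of the progenitor-like cells in both libraries, so the separation held only against the pooled class. The thinned shares of Clec4d in these progenitor-like cells, 2.63% and 6.58% of 76 cells each, did overlap those of B cells-like cells. Clec4e had 6.57 and 3.71 CPM in the same progenitor-like cells.

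**Figure D2:**
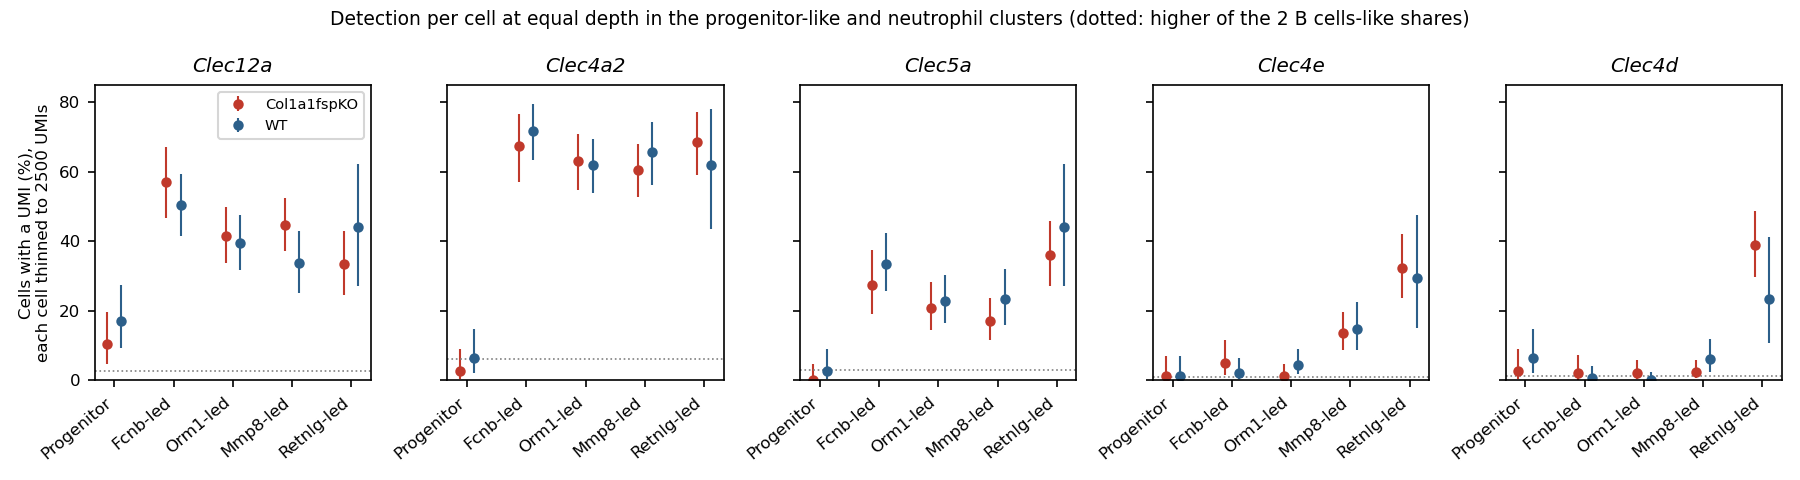
Percent of cells with at least 1 UMI of Clec12a, Clec4a2, Clec5a, Clec4e and Clec4d (y axis) after each cell was thinned to 2500 UMIs, in the progenitor-like cluster and the 4 clusters of the granulocyte series (x axis), in Col1a1fspKO (red) and WT (blue) with exact 95% intervals; dotted lines give the higher of the 2 B cells-like shares. Clec12a is above the line from the progenitor-like cells on, Clec4a2 and Clec5a are well above it from the Fcnb-led cluster on, and Clec4d reaches 38.9% and 23.5% only in the Retnlg-led cluster among these 5.

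Across 26 profiles, each a cluster of at least 20 cells in 1 library, some receptors had closely similar profiles. These correlations are descriptions, since the profiles share 2 libraries and differ in depth. Clec4a1 and Clec4a3 had a Pearson r of 0.967 on log2(CPM + 10), and Clec4d and Clec4e 0.864. Clec4a2 and Clec5a had 0.943, and Clec4e had 0.785 with Clec5a and 0.763 with Clec4a2. For Clec12a the highest value with another receptor was 0.664, with Clec5a, and Clec4a1 and Clec4d had -0.10. Among 8156 genes, those most like Clec4a1 were Ms4a8a (0.969), Clec4a3 and Lrp1 (0.964), and those most like Clec4a3 were Clec4a1, Fcgr1 (0.951) and Sirpb1c (0.943). For Clec4d they were Il1f9 (0.92), Prok2 (0.89) and Clec4e, and for Clec4e they were Bmx (0.957), Ccdc180 (0.954) and Cd300lb (0.948). Clec4a2 was closest to Hp (0.987), Lyz2 (0.972) and Mtus1 (0.971), and Clec5a to Hk3 (0.958), Gsr (0.958) and F630028O10Rik (0.953). Clec12a was closest to Rgs18 (0.902), Phactr2 (0.896) and Tmem170b (0.88). Hp and Lyz2 encode haptoglobin and lysozyme, abundant proteins of neutrophils and monocytes, and Fcgr1 the high-affinity IgG receptor of monocytes.

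Co-detection was also counted within a cluster, in cells that were not thinned, so deeper cells had more chance of a UMI of each gene. In the Retnlg-led cluster of Col1a1fspKO, 47.6% (32.0 to 63.6) of the 42 cells with a Clec4e UMI also had a Clec4d UMI, and 45.5% (33.1 to 58.2) of the 66 cells without one did. In WT these shares were 38.5% of 13 cells and 33.3% of 21 cells, and the intervals overlapped in both libraries. For Clec4a1 in the Wfdc17-led cluster of Col1a1fspKO, 82.1% (73.4 to 88.8) of cells with a Clec4a3 UMI had a Clec4a1 UMI and 54.4% (41.9 to 66.6) of those without did, with no overlap. In WT the shares were 67.3% (57.6 to 76.0) and 59.3% (47.8 to 70.0), which overlapped. The Wfdc17-led cluster also holds the Apoe-led and Fn1-led parts, which differ in Clec4a1. The parts of depth and of this division in the co-detection were not tested.

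Set against all other cells of the same library, 4 of the 7 receptors were at least 2-fold higher in Neutrophil-like cells in both libraries, namely Clec4a2, Clec4d, Clec4e and Clec5a. This held for 5.7% of the 7889 genes with at least 50 UMIs in each library. For Clec4d the fold was 7.86 (5.33 to 11.7) in the Col1a1fspKO library and 3.30 (2.01 to 5.32) in WT, and for Clec4e 7.71 (5.51 to 10.9) and 4.50 (3.08 to 6.55). Clec5a was 3.04-fold and 2.90-fold higher and Clec4a2 2.73-fold and 2.32-fold, while Clec12a, at 2.0-fold and 1.95-fold, fell just short. In Mono/Macro-like cells 2 of 7 passed, Clec4a1 and Clec4a3, against 9.58% of all genes. Clec4a1 was 55.4-fold (34.0 to 96.5) and 52.8-fold (31.4 to 95.9) higher there, and Clec4a3 47.8-fold (28.4 to 87.0) and 80.3-fold (41.5 to 178). The Retnlg-led cluster alone had 4 of 7, against 5.1% of all genes, with Clec4d 25.1-fold (17.2 to 36.5) and 16.8-fold (8.87 to 29.7) higher. The Wfdc17-led cluster had 2 of 7, against 9.71% of all genes.

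Between the genotypes, the levels of the receptors with many UMIs were close. Clec4a2 stood at 211 CPM over all cells in the Col1a1fspKO library and 219 CPM in WT, a ratio of 0.967 (0.906 to 1.03), and Clec12a at 136 and 132 CPM, a ratio of 1.03 (0.953 to 1.12). For Clec5a the ratio was 0.932 (0.814 to 1.07), for Clec4a3 1.04 (0.858 to 1.26) and for Clec4a1 1.21 (1.01 to 1.44). Clec4d was past 1.5-fold over all cells, at 13.9 CPM in the Col1a1fspKO library and 9.16 CPM in WT, a ratio of 1.51 (1.13 to 2.04), and was the only one of the 7, against 5.93% of 9725 genes with at least 50 UMIs over both libraries. Clec4e had 18.3 and 13.9 CPM, a ratio of 1.31 (1.03 to 1.68).

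**Figure D3:**
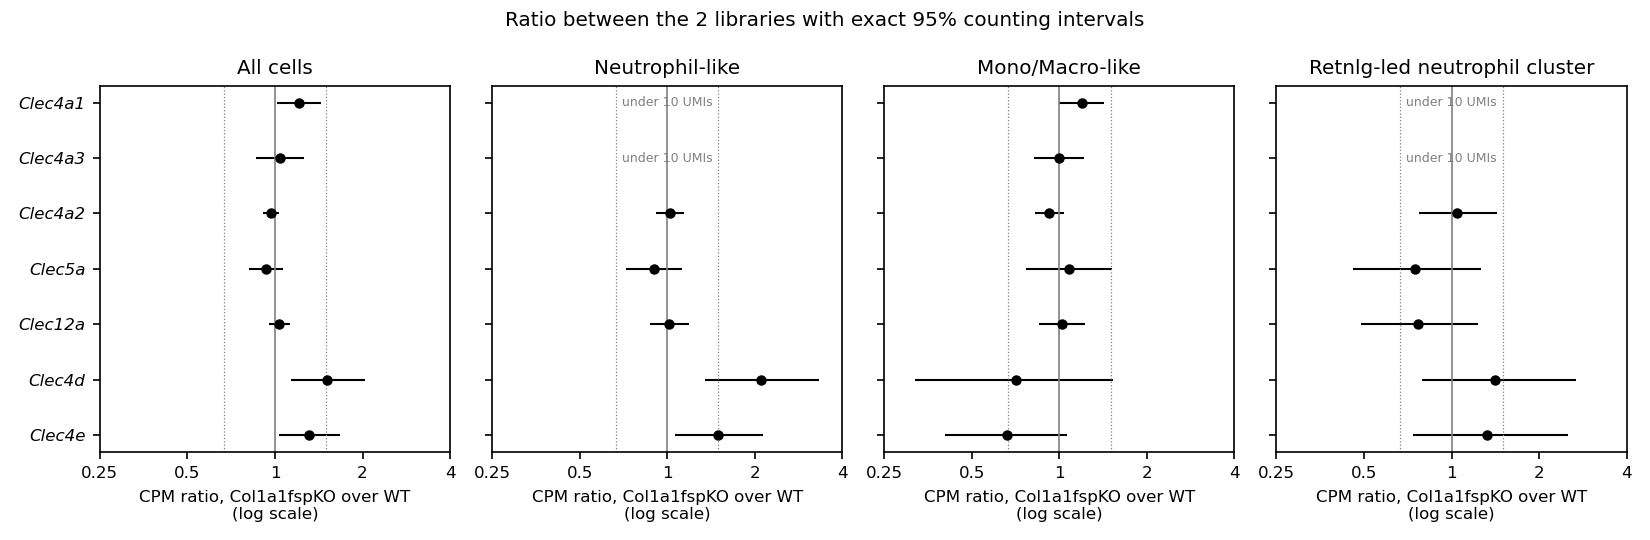
Ratio of CPM in Col1a1fspKO over WT (x axis, log scale) for the 7 receptor genes (y axis) in 4 panels (all cells, Neutrophil-like, Mono/Macro-like and Retnlg-led), with exact 95% counting intervals; dotted lines mark 1.5-fold in either direction. Clec4d in Neutrophil-like cells is farthest from 1, at 2.10, and Clec4a2 lies between 0.923 and 1.05 in each panel, while Clec5a and Clec12a, at 0.750 and 0.767 in the Retnlg-led panel, have wide intervals there that include 1.

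In Neutrophil-like cells 2 of the 5 receptors with at least 50 UMIs were past 1.5-fold, Clec4d and Clec4e, both higher in Col1a1fspKO, against 10.3% of 3061 genes. Clec4d had 47.2 CPM (78 UMIs) in the Col1a1fspKO library and 22.5 CPM (29 UMIs) in WT, a ratio of 2.10 (1.35 to 3.33). Clec4e had 61.7 CPM (102 UMIs) and 41.1 CPM (53 UMIs), a ratio of 1.5 (1.07 to 2.13), which is at the threshold. Clec4a2, at 434 and 424 CPM, Clec5a, at 108 and 119 CPM, and Clec12a, at 229 and 225 CPM, had ratios of 1.02 (0.913 to 1.14), 0.901 (0.722 to 1.13) and 1.02 (0.870 to 1.19).

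The makeup of the Neutrophil-like cells differed between the libraries. The Retnlg-led cluster was 25.3% (21.2 to 29.7) of them in Col1a1fspKO (108 of 427 cells) and 11.1% (7.79 to 15.1) in WT (34 of 307 cells), and the Orm1-led cluster 34.9% and 51.1%. In the Retnlg-led and Mmp8-led clusters the intervals of both ratios included 1. In the Retnlg-led cluster the ratio was 1.41 (0.793 to 2.68) for Clec4d and 1.32 (0.738 to 2.51) for Clec4e, and 0 of the 5 receptors with at least 50 UMIs were past 1.5-fold, against 14.3% of 760 genes. In the Mmp8-led cluster the ratio was 0.643 (0.268 to 1.53) for Clec4d and 0.852 (0.497 to 1.47) for Clec4e. When the Col1a1fspKO levels of the 3 clusters were combined in the WT shares of UMIs, Clec4d came to 27.1 CPM against 22.5 CPM, a ratio of 1.2, and Clec4e to 43.1 CPM against 41.1 CPM, a ratio of 1.05.

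Clec4d and Clec4e were also highest in the shallowest cells. Of the Neutrophil-like cells of Col1a1fspKO, 88 (20.6%) had fewer UMIs than the shallowest WT cell, 2909, and so had no counterpart in the WT table. In these 88 cells Clec4d had 36 UMIs, 151 CPM, and Clec4e 35 UMIs, 147 CPM, against 29.7 CPM and 47.3 CPM in the Neutrophil-like cells of Col1a1fspKO at or above that depth. In the Retnlg-led cluster 45 of 108 cells (41.7%) were below it. These 45 cells held 33 of the 36 Clec4d UMIs and 28 of the 35 Clec4e UMIs of the 88 cells. Within that cluster of Col1a1fspKO, Clec4d had 271 CPM below this depth and 127 CPM at or above it, and Clec4e 230 and 132 CPM. Leaving out the shallow cells thus also removed many Retnlg-led cells, and the parts of depth and of cluster makeup were not tested. With cells below 2909 UMIs left out, the log2 ratio in Neutrophil-like cells went from 1.07 to 0.40 for Clec4d and from 0.59 to 0.20 for Clec4e, and neither was past 1.5-fold. In the Retnlg-led cluster Clec4d then had 127 CPM in the Col1a1fspKO library and 126 CPM in WT, and Clec4e 132 and 126 CPM. Over all cells the log2 ratio of Clec4d went from 0.60 to 0.16.

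**Figure D4:**
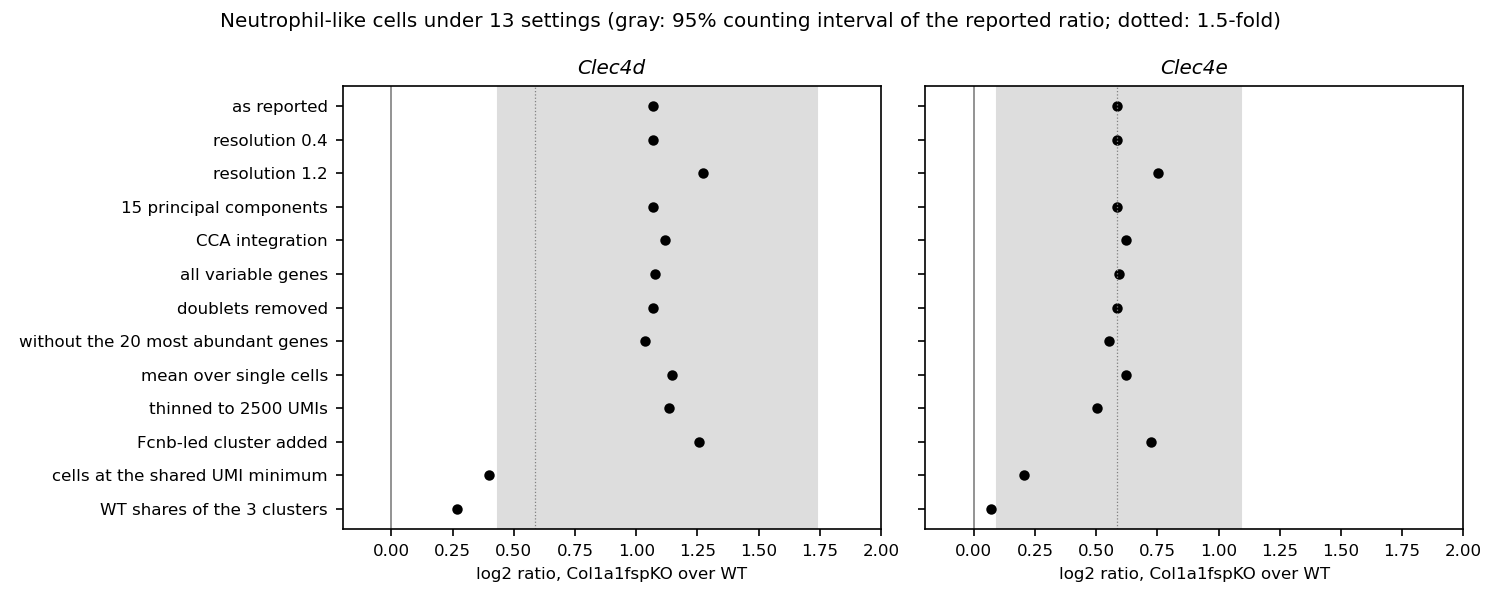
Log2 ratio of Col1a1fspKO over WT (x axis) for Clec4d and Clec4e in Neutrophil-like cells under 13 ways of processing (y axis); the gray band is the 95% counting interval of the ratio as reported and the dotted line is 1.5-fold. Leaving out cells below the shallowest WT cell and weighting the 3 clusters by their WT shares bring Clec4d to 0.40 and 0.27, outside the band, and Clec4e to 0.20 and 0.07.

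Among Mono/Macro-like cells 1 of the 6 receptors with at least 50 UMIs was past 1.5-fold, Clec4e, which was lower in Col1a1fspKO at 15.8 CPM (31 UMIs) against 23.9 CPM (46 UMIs), a ratio of 0.661 (0.405 to 1.06) whose interval includes 1. Past 1.5-fold were 6.84% of 5717 genes. Clec4a1 had 141 and 118 CPM, a ratio of 1.19 (0.996 to 1.43), and Clec4a3 107 and 108 CPM, a ratio of 0.995 (0.818 to 1.21). Clec4a2 had 286 and 310 CPM, a ratio of 0.923 (0.821 to 1.04), and Clec12a and Clec5a had ratios of 1.02 (0.848 to 1.22) and 1.08 (0.770 to 1.52). Clec4d had 13 and 18 UMIs here. In the Wfdc17-led cluster it was lower in Col1a1fspKO, at 6.33 CPM (2.32 to 13.8, 6 UMIs) against 17.3 CPM (10.1 to 27.7, 17 UMIs). The Ass1-led cluster went the other way, with 6 and 0 UMIs. In the Fcnb-led cluster the intervals of 2 ratios excluded 1, with Clec4a2 at 0.853 (0.757 to 0.961) and Clec12a at 1.21 (1.05 to 1.40).

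The signalling partners were read from lists of pathway genes. The median log2 ratio of all tested genes was -0.04 over all cells and -0.03 among Neutrophil-like cells, and that of the 7 receptors was 0.05 and, for the 5 tested, 0.03. For the adaptors and proximal signalling genes it was 0.06 and 0.05. Of these 21 genes, 20 had at least 50 UMIs over all cells and 1 was past 1.5-fold, a share near the 5.93% of all genes. It was Card9, the adaptor downstream of Syk, which was lower in Col1a1fspKO. Card9 had 60 UMIs in the Col1a1fspKO library and 157 in WT, a ratio of 0.381 (0.278 to 0.516). Its ratio was 0.439 (0.276 to 0.685) among the Mono/Macro-like cells, from 30 and 67 UMIs, and 0.252 (0.115 to 0.510) in Neutrophil-like cells, from 11 and 34 UMIs, which is under the 50 UMI minimum. The partner chains were abundant and close between the libraries, with 9669 and 9618 UMIs of Fcer1g, a ratio of 1.0 (0.975 to 1.03), and 18375 and 16973 of Tyrobp, a ratio of 1.08 (1.06 to 1.10). Syk had a ratio of 1.01 (0.876 to 1.16). In the same list Btk was lower in Neutrophil-like cells, at 24 and 30 UMIs, a ratio of 0.624 (0.349 to 1.10). By class, 10 of 20 genes of the list were at least 2-fold higher than in all other cells in both libraries in Mono/Macro-like cells, among them Fcer1g, Tyrobp, Lyn and Card9, against 9.58% of all genes, and 3 of 20 in Neutrophil-like cells, Fcer1g, Hcst and Fgr, against 5.7%. Of the 3 phosphatase genes 0 of 3 were past 1.5-fold over all cells, and Ptpn6 (SHP-1) had a ratio of 0.948 (0.875 to 1.03).

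Of 25 other C-type lectin receptors, 19 were listed and 10 had at least 50 UMIs over all cells, with a median log2 ratio of 0.02. Of these, 1 was past 1.5-fold, Clec10a, with 43 and 28 UMIs and a ratio of 1.53 (0.930 to 2.56). In Neutrophil-like cells Olr1, the receptor for oxidized lipoproteins, was 1 of 4, with 27 and 35 UMIs and a ratio of 0.602 (0.350 to 1.02). Among Mono/Macro-like cells the count was 0 of 6. Of the cytokine and chemokine targets, 6 of 14 could be compared over all cells and 3 were higher in Col1a1fspKO, namely Il1b with 55 and 22 UMIs and a ratio of 2.49 (1.5 to 4.29), Ccl4 with 74 and 24 UMIs and a ratio of 3.08 (1.92 to 5.10), and Nfatc2, a transcription factor gene, with 39 and 22 UMIs and a ratio of 1.77 (1.02 to 3.13). The median log2 ratio of these 6 genes was 0.56, and 5.93% of all genes were past 1.5-fold in either direction. By class, Il1b had 18 and 2 UMIs in Neutrophil-like and 13 and 10 in Mono/Macro-like cells, each under the minimum of 50 UMIs. Ccl4 had 3 and 0 UMIs in Neutrophil-like and 0 and 2 in Mono/Macro-like cells, so nearly all its UMIs came from other cells. Under the minimum, Il6 was lower in Col1a1fspKO, with 8 and 20 UMIs and a ratio of 0.399 (0.152 to 0.946). Il6 had 0 and 1 UMIs in Neutrophil-like and 3 and 0 in Mono/Macro-like cells, so most of its UMIs also came from other cells. Tnf had 27 and 32 UMIs in Neutrophil-like cells, a ratio of 0.658 (0.379 to 1.13).

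Genes that respond to cell dissociation were read as a further list. Of 12 such genes, 7 were compared over all cells, with a median log2 ratio of 0.36, and 1 was past 1.5-fold, Fos, at 1.68 (1.41 to 1.99), against the 5.93% of all genes. In Neutrophil-like cells, where the median was 0.39, 2 of 5 were, Junb at 2.18 (1.29 to 3.84) and Dusp1 at 2.08 (1.28 to 3.48), both higher in Col1a1fspKO, against the 10.3% of all genes, and the summed level of the list was 397 CPM in the Col1a1fspKO library and 295 CPM in WT. In the Retnlg-led cluster Ier2 was past 1.5-fold and the summed level was 701 and 488 CPM. In Mono/Macro-like cells 0 of 6 were past 1.5-fold. The part of the dissociation response in the levels of Clec4d and Clec4e was not tested.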

How the data were processed

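Bone marrow of Col1a1fspKO and WT mice was profiled with 1 library of pooled cells per genotype. The values the authors deposited are raw UMI counts, which Cell Ranger had assigned to cells and genes. The submitters' notes name mm10 and Seurat 3.5.3, and the Cell Ranger version is not given in the sources used here. The study's filters (200 to 7000 genes, at most 10% mitochondrial UMIs) were checked and removed 0 cells. Cells were clustered with Seurat 5.3.0 in R 4.3.3 (log-normalization, 2000 variable genes less 16 genes of the receptors and their pathway lists, 27 principal components, resolution 0.8, no integration). Clusters took the class with the highest mean marker z-score, and stayed unnamed if another class had more markers among the 10 leading genes or under 3 markers were detected. Scrublet called 5 doublets per library, which were kept. UMIs were summed per population and given as CPM with Python 3.11.15 and scipy 1.17.1. Intervals are exact: Poisson for levels, Clopper-Pearson for shares and conditional binomial for ratios, at 95%. They cover counting error only, and with 1 library per genotype no test was made. A ratio needed 10 UMIs over both libraries, and a count of genes past 1.5-fold 50 UMIs. Poisson counts were simulated with 200 genes changed. The ratio interval held the known value for 97.0% of changed genes among 3061 in Neutrophil-like cells and 93.5% among 5717 in Mono/Macro-like cells. The interval assumes such counts, so this checks the calculation only, and not variation between cells or mice. Of the unchanged genes, 7.97% and 4.3% were past 1.5-fold in the 2 classes from counting error alone.

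The members and the gene lists were chosen with earlier results of these data known. Named genes are the members, the targeted gene and the Cre driver gene, cluster-leading genes, Fcer1g, Tyrobp, Syk, Card9, Ptpn6, list genes past 1.5-fold, and for each member the 3 genes most correlated with it among those with at least 100 UMIs. Cx3cr1 and Il6 were added after their values were seen. The alternatives were clustering on every variable gene, at resolution 0.4 or 1.2 or on 15 principal components, CCA integration, doublets removed, a shared UMI minimum, CPM without the 20 most abundant genes, means over single cells, thinning to 2500 UMIs, no UMI minimum and a minimum of 100 UMIs. Adding the Fcnb-led cluster to the Neutrophil-like class and weighting the neutrophil clusters by their WT shares were chosen after seeing the data. The result of 1 listed gene is not reported here.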

Additional observations from a re-analysis of the deposited data

How the results depend on the processing

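Of 250 log2 ratios between the genotypes recomputed under alternatives, 243 stayed within the counting interval of the reported value, 7 fell outside it and 0 changed sign among those past 1.5-fold. The 7 were Clec4d in Neutrophil-like cells at 0.40 with the shared UMI minimum and 0.27 with WT shares of the clusters, Clec4d over all cells at 0.16 with the shared UMI minimum, Clec4e in Neutrophil-like cells at 0.07 with WT shares, Clec4a1 over all cells at -0.02 as a mean over single cells, Clec4a2 in Neutrophil-like cells at -0.14 at resolution 1.2, and Clec4a3 over all cells at -0.34 when thinned. The number of receptors past 1.5-fold in Neutrophil-like cells, 2 as reported, was 0 with the shared UMI minimum, 0 with WT shares, 1 when thinned and 1 without the 20 most abundant genes. In Mono/Macro-like cells it was 1 as reported and 0 with 15 principal components, 0 with a minimum of 100 UMIs and 0 when thinned; the last 2 leave fewer UMIs or a higher minimum. It was 1 in place of 0 in the Retnlg-led cluster with CCA integration and 0 in place of 1 over all cells with the shared UMI minimum. The cluster with the most Fcnb was unnamed as reported, Neutrophil-like at resolution 1.2 and Myeloid progenitor-like with 15 principal components and with CCA integration. With the Fcnb-led cluster added to the Neutrophil-like class, the log2 ratio of Clec4a2 there was -0.12. Where no construction shows it, the cause was not tested. The counts of receptors higher in a class stayed within 1.5 times the reported counts. No paired analysis was possible because each genotype has 1 library.

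With 1 library of 2 pooled mice per genotype, differences between mice cannot be told apart from those between genotypes. Clec4d and Clec4e rest on 29 and 53 UMIs in WT Neutrophil-like cells, so only large differences are resolved within a cluster.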
